A study of Mus musculus with 8 samples.

Results

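Small leucine-rich proteoglycans are secreted matrix proteins that coat collagen fibrils. The transcripts of 8 of them were examined by RNA sequencing of cultured mouse dermal fibroblasts, namely decorin (Dcn), biglycan (Bgn), lumican (Lum), fibromodulin (Fmod), osteoglycin (Ogn), prolargin (Prelp), asporin (Aspn) and podocan (Podn). The genes were picked by symbol as members of this family, with no threshold on a measured value, and all 8 were present among the 15111 genes of the table. Fibroblasts were isolated from the back skin of mice that were fed tamoxifen from week 4 and killed when 10 weeks old. The cells were first cultured in medium with fetal calf serum. They were then kept for 72 h on fibronectin in a serum replacement medium. The 4 control libraries carried floxed Tgfb1 alleles alone (Tgfb1fl/fl), and the 4 TGFβ1FKO libraries carried the same alleles together with Col1a2-CreERT, a tamoxifen-inducible Cre recombinase driven by Col1a2 regulatory sequence and thus aimed at collagen-producing cells. Whether each library came from a separate mouse is not given in the sources used here, so p-values measure the spread between these samples, which may be partly technical. The comparison asked whether fibroblasts from mice with this deletion of Tgfb1 differ in the expression of these matrix genes.

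All members share a curved core built of leucine-rich repeats, through which they bind fibrillar collagens. Several of them influence the thickness of collagen fibrils. They are grouped into classes by sequence. Decorin, biglycan and asporin form class I, of which decorin and biglycan carry chondroitin or dermatan sulphate chains. Fibromodulin, lumican and prolargin belong to class II, of which fibromodulin and lumican can carry keratan sulphate. Osteoglycin is a class III protein and podocan a class V protein. Decorin is the main small proteoglycan of the dermis, and mice that lack it have fragile skin. Several members bind TGFβ in the matrix, and in cultured skin fibroblasts TGFβ is known to raise biglycan and to lower decorin.

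No member differed between genotypes beyond the thresholds of the study. The members differed widely in level. Biglycan, the most abundant, averaged 92161 ± 5778 normalised counts over the 4 control libraries (SD) and 89970 ± 5920 over the 4 TGFβ1FKO libraries (SD). Podocan, the least abundant, averaged 676.9 ± 97.6 and 607.0 ± 38.5, respectively (SD, n = 4 each). A normalised count is the number of reads of a gene after scaling for the depth of its library. Fmod, whose product binds collagen and helps its cross-linking, was the member with the smallest p-value, at 1.14-fold of control (95% interval 1.01 to 1.29), and it did not pass the correction for multiple testing. In contrast to the small differences between genotypes, members that lie next to each other in the genome varied together from library to library. Some members on different chromosomes did so as well.

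The control libraries held 16988998 to 21806579 reads on the listed genes and the TGFβ1FKO libraries 17445002 to 23071528. The least abundant member, Podn, had between 558 and 791 reads per library, so that counting error was small for all members. Tgfb1, the deleted gene, averaged 1374 ± 85.4 normalised counts over the 4 control libraries (SD) and 277.3 ± 42.5 over the 4 TGFβ1FKO libraries (SD). On the log2 scale it fell by 2.31 (adjusted p = 1.53e-07 from limma, with Benjamini-Hochberg adjustment over all genes). Its transcripts thus remained at 0.20-fold of control. All 8 dermal fibroblast markers were in the table, and together they took 8.37% to 9.81% of the normalised counts of a control library and 8.56% to 9.12% of a TGFβ1FKO library. Markers of other cells were far lower. The 6 measured of 7 chondrocyte or tendon markers summed to 2046 to 2584 normalised counts in control and 2106 to 2556 in TGFβ1FKO libraries, the 4 measured of 5 pericyte markers to 913.6 to 1460 and 1014 to 1251, and the 2 measured of 5 melanocyte markers to 43.6 to 111.6 and 33.4 to 59.8. The 2 measured of 6 leukocyte markers summed to 177.4 to 240.6 normalised counts in control and 181.85 to 203.0 in TGFβ1FKO libraries. For the 3 measured of 7 keratinocyte markers the sums were 91.2 to 119.5 and 91.3 to 124.3, respectively. The other leukocyte genes (Ptprc, Adgre1, Itgam and Cd3e), the other keratinocyte genes (Krt5, Krt14, Krt1 and Dsg3) and all 4 adipocyte markers were not in the table. Of 7 Schwann cell markers, 6 were in the table and all 6 were lower in TGFβ1FKO libraries, 3 of them past both thresholds. Their sum ranged from 258.8 to 823.9 normalised counts in control and from 72.5 to 122.9 in TGFβ1FKO libraries. All 6 endothelial markers were lower as well, with sums of 498.7 to 779.9 and 490.8 to 515.7, and none passed the thresholds. The part of these cells in the proteoglycan values was not tested, and in bulk RNA fewer cells of a type and less RNA per cell cannot be told apart.

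Of the 8 genes, 6 lie in 3 clusters of the family in the mouse genome (GRCm38). Dcn (ENSMUSG00000019929, chr10:97479609-97518143) and Lum (ENSMUSG00000036446, chr10:97565128-97572703) are neighbours on the plus strand of chromosome 10 and are followed by Kera, which encodes keratocan of the cornea. On chromosome 1, Prelp (ENSMUSG00000041577, chr1:133910304-133921414, minus strand) and Fmod (ENSMUSG00000041559, chr1:134037254-134048277, plus strand) stand head to head, with the predicted gene Gm1627 between them and Optc, which encodes opticin of the eye, on the other side of Prelp. On chromosome 13, Aspn (ENSMUSG00000021388, chr13:49544443-49567565) and Ogn (ENSMUSG00000021390, chr13:49608046-49624501) belong to a run of 4 genes on the plus strand, in the order Ecm2, Aspn, Omd and Ogn. Both Aspn and Ogn lie inside Cenpp, a centromere protein gene of the opposite strand. Exons of Aspn overlap exons of Cenpp and those of Ogn do not, and as the libraries do not mark strand, reads in the shared stretch cannot be assigned to 1 of the 2 genes. Bgn (ENSMUSG00000031375, chrX:73483602-73495933) and Podn (ENSMUSG00000028600, chr4:108014791-108096445) lie apart from other members of the family. Exons of Prelp also overlap an antisense gene, Gm15851, which is not in the table.

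The sequences just upstream of the clustered genes are shown because these pairs moved together across the libraries. RefSeq held start sites for 6 of the 8 members, and Dcn and Lum were without an entry. The windows are the 250 bases before the RefSeq start, on the strand of the gene, in GRCm38.p6. For the chromosome 1 pair, capitals mark the Smad-binding letters CAGAC, or GTCTG on the other strand, which Smad proteins downstream of TGFβ can bind.
Fmod, chr1:134037004-134037253, plus strand: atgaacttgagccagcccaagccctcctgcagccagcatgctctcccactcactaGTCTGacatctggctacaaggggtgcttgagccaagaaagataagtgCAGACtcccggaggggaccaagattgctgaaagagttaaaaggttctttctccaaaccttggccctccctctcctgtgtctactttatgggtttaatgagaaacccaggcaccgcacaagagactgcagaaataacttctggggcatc
Prelp, chr1:133921402-133921651, minus strand: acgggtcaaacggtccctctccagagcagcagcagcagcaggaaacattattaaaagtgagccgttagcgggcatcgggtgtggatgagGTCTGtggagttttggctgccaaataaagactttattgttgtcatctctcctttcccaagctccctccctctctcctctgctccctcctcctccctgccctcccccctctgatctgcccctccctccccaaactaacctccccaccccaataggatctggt
Fmod held the letters at 2 places, starting 195 and 148 bases upstream of the start, and Prelp at 1 place, 161 bases upstream. The windows of Bgn, Aspn, Ogn and Podn held none. Of 32851 mouse promoter windows of the same length, 42.2% hold these 5 letters on either strand, so that a match is common and is given as a description only.

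For the chromosome 13 pair, capitals mark the TATA letters TATAAA, or TTTATA on the other strand.
Aspn, chr13:49544193-49544442, plus strand: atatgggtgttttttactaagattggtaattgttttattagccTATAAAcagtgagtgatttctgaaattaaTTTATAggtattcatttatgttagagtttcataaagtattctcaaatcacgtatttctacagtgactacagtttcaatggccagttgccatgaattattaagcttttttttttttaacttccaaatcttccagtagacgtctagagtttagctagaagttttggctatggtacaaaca
Ogn, chr13:49607765-49608014, plus strand: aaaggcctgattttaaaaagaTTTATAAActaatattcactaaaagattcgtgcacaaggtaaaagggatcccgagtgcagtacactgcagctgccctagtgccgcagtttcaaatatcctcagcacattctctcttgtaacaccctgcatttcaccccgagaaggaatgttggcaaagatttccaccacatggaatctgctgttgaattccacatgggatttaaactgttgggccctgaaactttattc
Aspn held the letters at 2 places, and in Ogn a single stretch holds them on both strands with an overlap. All of these matches start between 178 and 229 bases upstream of the start. The letters were found in 12.4% of all windows and in none of the windows of Bgn, Fmod, Prelp and Podn. These matches, too, are given as a description only. The window of Aspn was poor in G and C (30.0%) and that of Podn rich (78.0% and 64.0% in its 2 windows), where the median of all windows was 52.4%.

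Levels were compared between genes per kilobase of the union of exons. Biglycan was the most abundant member at 14931 ± 908.4 (SD, n = 8) normalised counts per kb and ranked 29 among 15098 genes with a length. Prolargin, which binds collagen and heparan sulphate, followed at 5318 ± 1333 per kb (SD, n = 8) and decorin at 3759 ± 511.3 per kb (SD, n = 8). Thus biglycan transcripts, and not those of decorin, led the family in these cultured cells.

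Asporin, a class I protein without a glycosaminoglycan chain, was found at 2852 ± 343.3 per kb (SD, n = 8) and fibromodulin at 1925 ± 221.2 per kb (SD, n = 8). Lumican reached 1083 ± 137.7 per kb and osteoglycin 933.2 ± 154.0 per kb (SD, n = 8 each). Podocan was the lowest, at 150.3 ± 18.3 per kb (SD, n = 8), and ranked 5260. The distance from the first to the last member was thus large, whereas some neighbours in the order overlapped. The ranges over the 8 libraries overlapped between Prelp and Dcn, between Dcn and Aspn and between Lum and Ogn. The higher gene of the pair led in all 8 libraries for Prelp and Dcn and for Dcn and Aspn, and in 7 of 8 libraries for Lum and Ogn. With the longest transcript as the length, the order was the same, but Bgn rose to 34158 and Dcn to 4678 per kb, and Prelp led Dcn in 5 of 8 libraries only.

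**Figure D1:**
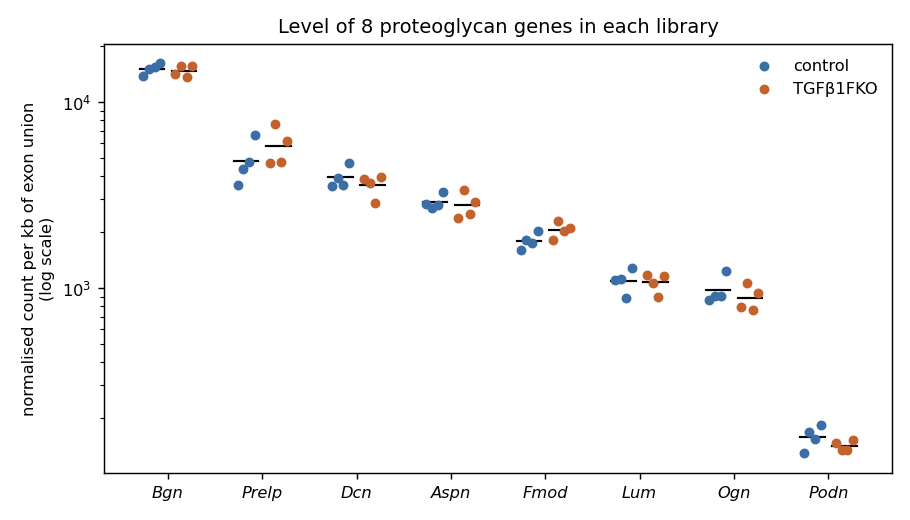
Normalised count per kilobase of exon union on a log axis for the 8 genes, with 1 point per library (4 control, 4 TGFβ1FKO) and a bar at each group mean. Bgn lies above all other members in every library, Podn below them, and the 2 genotypes overlap for every gene.

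Together, the 8 members took 0.722% to 0.880% of the normalised counts of a control library and 0.704% to 0.845% of a TGFβ1FKO library. Biglycan alone supplied 57.4% to 62.8% of this sum in control and 57.5% to 61.9% in TGFβ1FKO fibroblasts. The sum was also set against the normalised counts of collagen I (Col1a1 and Col1a2), the main fibrillar collagen of the dermis. It came to 14.8% ± 0.298 of them over the 4 control libraries (SD) and 14.6% ± 0.837 over the 4 TGFβ1FKO libraries (SD). These shares were not corrected for gene length. The ranges of the groups overlapped in each of these shares.

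Of the 8 members, none passed the 2 thresholds that define a call with limma (adjusted p-value below 0.05, log2 fold change beyond 0.6 in either direction). Of all 15111 genes, 0.0860% (13 genes) passed them, 0.0794% lower and 0.00662% higher in TGFβ1FKO libraries. At an unadjusted p-value under 0.05 there was 1 member, Fmod, against 7.46% of all genes. In none of the 8 members were the groups free of overlap, against 3.79% of all genes (1.69% with TGFβ1FKO above and 2.10% with TGFβ1FKO below control). The log2 fold changes ran from -0.15 (Podn) to 0.28 (Prelp), 6 below and 2 above 0, with a median of -0.05 where that of all genes was 0.003. The 95% interval of the log2 fold change lay within -0.6 to 0.6 in 7 of the 8 members, against 72.2% of all genes. Prelp was the exception, with an upper bound of 0.66.

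**Figure D2:**
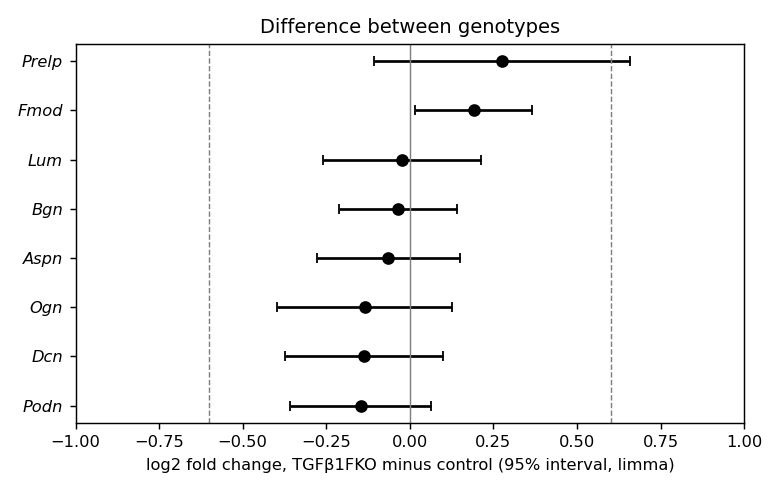
Log2 fold change of TGFβ1FKO against control for the 8 genes, with points for limma's estimate and bars for its 95% interval (4 libraries per group). Dashed lines mark the threshold of 0.6 in either direction, which only the bar of Prelp passes, and only the bar of Fmod leaves out 0.

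Among the class I genes, Dcn had normalised counts of 20582, 22872, 21017 and 27422 in control replicates 1 to 4 and of 22564, 21331, 16763 and 23032 in TGFβ1FKO replicates 1 to 4. The highest value was that of control replicate 4 and the lowest that of TGFβ1FKO replicate 3, and the other 6 libraries intermingled. Its log2 fold change was -0.14 with a 95% interval of -0.37 to 0.10 (adjusted p = 0.810, limma), and the two-sided exact permutation test gave p = 0.514. With 4 libraries against 4, such a test cannot give a p-value below 0.0286.

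Bgn had 84458, 92039, 93817 and 98329 normalised counts in the control and 86377, 94831, 83513 and 95158 in the TGFβ1FKO libraries. The groups covered nearly the same range. Its log2 fold change of -0.03 had an interval of -0.21 to 0.14 (adjusted p = 0.947, limma; two-sided exact permutation test, p = 0.657). The ratio of Bgn to Dcn in normalised counts was 4.04 ± 0.361 over the 4 control libraries (SD) and 4.35 ± 0.493 over the 4 TGFβ1FKO libraries (SD). It ranged from 3.59 to 4.46 and from 3.83 to 4.98, respectively, so that the groups overlapped.

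Aspn, whose product competes with decorin for collagen, had 6659, 6376, 6612 and 7717 normalised counts in the control libraries and 5604, 7961, 5921 and 6866 in the TGFβ1FKO libraries. The TGFβ1FKO libraries held both the highest and the lowest value. For Aspn the log2 fold change was -0.06 with an interval of -0.28 to 0.15 (adjusted p = 0.913, limma; two-sided exact permutation test, p = 0.657).

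Of the class II genes, Fmod had 5299, 6021, 5763 and 6686 normalised counts in the control libraries and 5971, 7569, 6655 and 6941 in the TGFβ1FKO libraries. TGFβ1FKO replicates 2 and 4 lay above all control libraries, and replicates 1 and 3 lay within their range. Its log2 fold change of 0.19 had a standard error of 0.08 and an interval of 0.02 to 0.37 (unadjusted p = 0.035, adjusted p = 0.647, limma; two-sided exact permutation test, p = 0.143). Its unadjusted p-value stayed under 0.05 without control replicate 4 or TGFβ1FKO replicate 1, and was 0.051 to 0.115 with any of the 6 other libraries left out.

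Prelp varied more between libraries than any other member, with 12986, 15691, 17113 and 24013 normalised counts in the control libraries and 17100, 27378, 17281 and 22237 in the TGFβ1FKO libraries. Control replicate 1 was the lowest library and TGFβ1FKO replicate 2 the highest. The SD of its log2 values within groups was 0.35, higher than in 95.6% of the 11561 genes with a mean of at least 50 normalised counts, whose median was 0.12. Its log2 fold change was 0.28 with an interval of -0.11 to 0.66 (adjusted p = 0.741, limma; two-sided exact permutation test, p = 0.371). This value moved with single libraries. The log2 fold change was 0.44 without control replicate 4 (unadjusted p = 0.011, adjusted p = 0.398, limma), 0.15 without control replicate 1 (unadjusted p = 0.407, adjusted p = 0.901) and 0.14 without TGFβ1FKO replicate 2 (unadjusted p = 0.416, adjusted p = 0.936).

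Lum had 2690, 2732, 2151 and 3125 normalised counts in the control and 2892, 2610, 2178 and 2823 in the TGFβ1FKO libraries. Both groups held a library near the low end, and the values of the TGFβ1FKO libraries fell within the control range. For Lum the log2 fold change was -0.02 with an interval of -0.26 to 0.21 (adjusted p = 0.976, limma; two-sided exact permutation test, p = 0.886).

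Ogn, the class III member, had 2212, 2317, 2329 and 3180 normalised counts in the control and 2024, 2717, 1959 and 2419 in the TGFβ1FKO libraries. Control replicate 4 stood well above the 3 other control libraries, and the groups overlapped. Its log2 fold change of -0.14 had an interval of -0.40 to 0.13 (adjusted p = 0.823, limma; two-sided exact permutation test, p = 0.514). It was -0.02 without control replicate 4 and -0.22 without TGFβ1FKO replicate 2.

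Podn, a class V protein that like the others binds collagen, had 550.6, 715.1, 660.9 and 781.2 normalised counts in the control and 623.4, 577.9, 573.0 and 653.7 in the TGFβ1FKO libraries. The 4 TGFβ1FKO libraries lay within the wider range of the controls. Its log2 fold change was -0.15 with an interval of -0.36 to 0.06 (adjusted p = 0.753 from limma, and p = 0.257 from the two-sided exact permutation test). Without control replicate 1 it was -0.24 (unadjusted p = 0.012, adjusted p = 0.551, limma). Without control replicate 4 it was -0.07 (unadjusted p = 0.435, adjusted p = 0.832, limma).

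Several libraries stood at the same end of their group in many members. Control replicate 4 had the highest control value in 8 of 8 members, whereas it was highest in 28.9% of the 11561 genes with a mean of at least 50. Control replicate 1 was the lowest control in 6 of 8 members, and in 22.6% of those genes. Among TGFβ1FKO libraries, replicate 2 was highest in Fmod, Ogn, Prelp and Aspn (29.2% of those genes), and replicate 3 was lowest in Dcn, Bgn, Lum, Ogn and Podn (24.8% of those genes). Control replicate 4 was also the highest control in 8 of 11 collagen genes bound by these proteoglycans, and it differed from the other controls in several marker lists. Among the controls it held the lowest Schwann cell sum (258.8 normalised counts against 548.9 to 823.9) and the lowest endothelial sum (498.7 against 646.9 to 779.9). It held the highest chondrocyte or tendon sum (2584 against 2046 to 2100), the highest melanocyte sum (111.6 against 43.6 to 47.3), the highest keratinocyte sum (119.5 against 91.2 to 100.9) and the highest fibroblast share (9.81%). The single markers did not all follow these sums. Control replicate 4 was the highest control in 2 of 6 chondrocyte or tendon and 1 of 2 melanocyte markers. It was so in 2 of 3 keratinocyte and 5 of 8 fibroblast markers. Among the tendon genes, Tnmd was highest there (1502 against 827.7 to 930.3) and Scx lowest (88.9 against 97.7 to 127.3). The part of this library's make-up in the proteoglycan values was not tested.

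All 28 pairs of members had a positive Pearson's r of their log2 values over the 8 libraries, from 0.09 to 0.92 with a median of 0.51. These correlations are descriptions over 8 libraries that share a size factor per library, and no test was made on them. Genes of the same cluster had high values, at 0.92 for Fmod and Prelp, 0.91 for Aspn and Ogn and 0.82 for Dcn and Lum, and among the other 25 pairs Bgn, which lies in no cluster, and Ogn reached 0.86. The median of these 25 pairs was 0.49. Many genes outside the family were closer than the neighbour. Of 11560 genes, Lum ranked 215 by r to Dcn and Dcn 72 by r to Lum. Prelp ranked 114 by r to Fmod and Fmod 78 by r to Prelp. For each of the 6 clustered genes, the member with the most similar profile was its neighbour in the cluster. This held for 6 of 6 genes without control replicate 4 as well, where the same 3 pairs had values of 0.74 to 0.94 and the other 25 pairs a median of 0.22, with 25 of all 28 pairs positive. After subtraction of the group means it held for 4 of 6, since Prelp and Ogn then resembled each other most (0.97). The 3 pairs then had values of 0.86 to 0.92, and the other 25 pairs a median of 0.64.

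**Figure D3:**
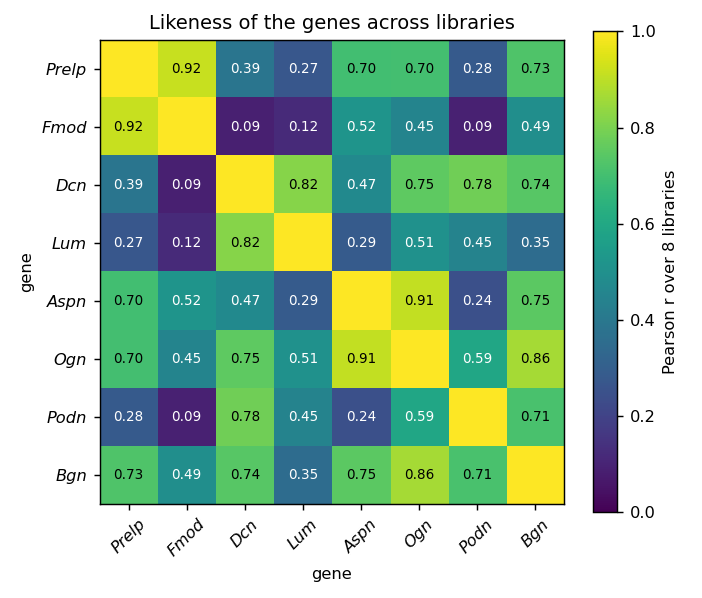
Pearson's r of log2 normalised counts over 8 libraries for each pair of the 8 genes, ordered by chromosome, with the value printed in each cell. The cells of Prelp and Fmod, Dcn and Lum, and Aspn and Ogn, which are neighbours in the genome, hold values of 0.82 to 0.92.

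On chromosome 13 the likeness extended to the other 2 genes of the run. Omd, which encodes osteomodulin, had 239.2, 206.1, 200.7 and 309.1 normalised counts in the control and 177.4, 298.3, 189.3 and 228.2 in the TGFβ1FKO libraries. Ecm2, which encodes a matrix protein with leucine-rich repeats, had 332.9, 326.2, 346.0 and 443.4 in the control and 322.3, 419.4, 298.9 and 398.9 in the TGFβ1FKO libraries. Within their groups both were highest in control replicate 4 and in TGFβ1FKO replicate 2, as were Aspn and Ogn. All 6 pairs among these 4 genes had an r between 0.88 and 0.96, and between 0.80 and 0.95 without control replicate 4. Of 11560 genes, Omd ranked 5 and Ogn 25 by r to Aspn, and Ecm2 ranked 25 by r to Ogn. The likeness of Ecm2 was not limited to the run. Its r was 0.85 to Bgn and 0.83 to Prelp, on other chromosomes, where Omd had 0.63 and 0.65. After subtraction of the group means, Ecm2 had 0.97 to Ogn, 0.92 to Prelp and 0.91 to Aspn. Cenpp, which spans Aspn on the other strand, went the other way, with an r of -0.77 to Aspn and averaged only 51.0 ± 16.7 normalised counts over the 4 control libraries (SD) and 52.9 ± 9.52 over the 4 TGFβ1FKO libraries (SD). Nol8, the next gene beyond Ogn, had an r of 0.42 to it, which was 0.76 after subtraction of the group means and 0.18 without control replicate 4.

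**Figure D4:**
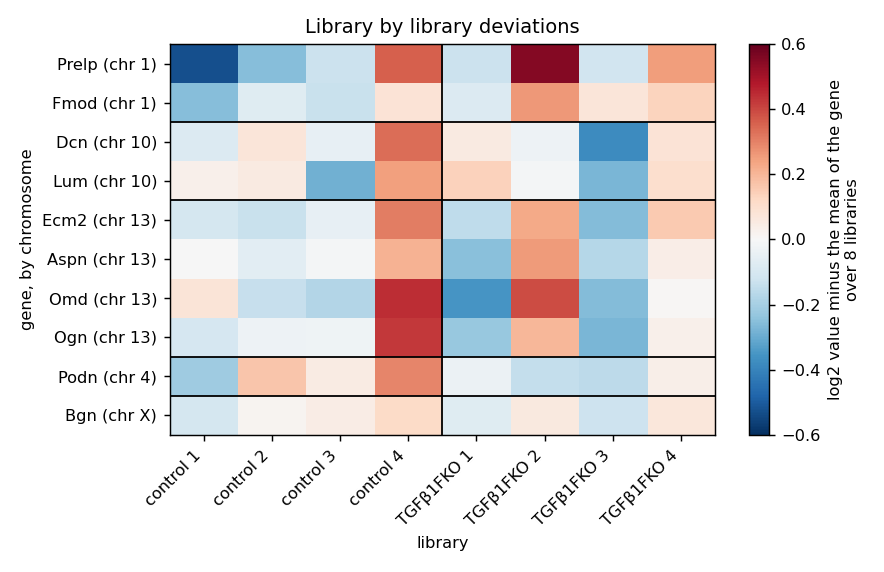
Log2 value of each gene minus its mean over the 8 libraries, in colour, for the 8 members and for Ecm2 and Omd, with genes ordered by chromosome and libraries by group. Rows of the same chromosome carry similar colours, and control replicate 4 is above the mean in all 10 rows.

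The genes with the highest r to a member came from outside the family. For Fmod these were Sash1 (0.99) and Oxr1 (0.98), for Prelp Kazn (0.99) and Il6ra (0.98), and for Ogn B2m (0.99) and Ap1s2 (0.98). For Aspn they were 0610030E20Rik (0.98) and Pex5l (0.97), for Bgn Ptger3 (0.98) and Cpq (0.96), and for Dcn Kxd1 and Duox1 (0.97 each). For Lum they were Phc1 (0.98) and Sema3c (0.95), and for Podn St3gal1 (0.96) and Slc35f5 (0.95). Taking the 2 highest of 11560 genes over 8 libraries by itself selects high values.

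None of the genes next to the members passed the thresholds. Btg1 (before Dcn), Kera, Optc, Gm1627, Btg2 (after Fmod), Ecm2, Omd, Nol8, Haus7 and Dusp9 (on either side of Bgn) and Cpt2 and Echdc2 (on either side of Podn) had log2 fold changes between -0.11 (Echdc2) and 0.29 (Dusp9). Btg2, an early response gene that restrains proliferation, had an unadjusted p-value under 0.05 (3321 ± 136.7 normalised counts in control, 3655 ± 252.5 in TGFβ1FKO libraries, SD, n = 4 each, log2 fold change 0.14, adjusted p = 0.654, limma).

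The remaining genes of the family gave no call either. Of 11 further genes, 9 were in the table (Chad and Nepn were not), none was called or had an unadjusted p-value under 0.05 with limma, and their median log2 fold change was -0.01. The 95% interval lay within -0.6 to 0.6 in 5 of the 9. The smallest p-values belonged to Chadl, at 13.8 to 39.9 normalised counts in the control and 11.1 to 19.7 in the TGFβ1FKO libraries, and to Epyc, which encodes epiphycan of cartilage, at 3.95 to 9.98 and 1.66 to 12.2, respectively.

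Genes that build and modify the sugar chains of these proteins were tested next. Of 33 genes of glycosaminoglycan synthesis, 31 were in the table, none was called, 2 were lower and 3 higher at an unadjusted p-value under 0.05 (background 3.87% lower and 3.59% higher), and the median was -0.01. Chst3, which adds sulphate to chondroitin, had 18.1, 31.9, 55.4 and 15.8 normalised counts in the control and 7.10, 7.25, 8.30 and 13.3 in the TGFβ1FKO libraries. Every TGFβ1FKO library lay below every control library, at a low level. The log2 fold change was -1.52 with an interval of -2.37 to -0.67, and it did not pass the correction (unadjusted p = 0.00204, adjusted p = 0.342, limma; two-sided exact permutation test, p = 0.0286). Papss2, which makes the sulphate donor, had 1016 ± 89.4 (SD, n = 4) and 1181 ± 107.5 (SD, n = 4) normalised counts (log2 fold change 0.22, adjusted p = 0.597, limma). In 2 of the 31 genes, Chst3 and Chst7 (log2 fold change -0.50), every TGFβ1FKO library lay below every control, against 2.10% of all genes. In 1, Xylt2 (log2 fold change 0.17), every TGFβ1FKO library lay above every control, against 1.69% of all genes.

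Of 15 proteases and helpers that process or cleave the core proteins, 13 were in the table, and none was called, with a median of -0.02. At an unadjusted p-value under 0.05, 2 were lower and 1 higher (background 3.87% lower and 3.59% higher). Mmp13, a collagenase that also cleaves fibromodulin, averaged 309.2 ± 206.3 normalised counts over the 4 control libraries (SD) and 147.4 ± 43.2 over the 4 TGFβ1FKO libraries (SD) (log2 fold change -0.92, adjusted p = 0.609, limma). Adamts4, an aggrecanase, had 1796 ± 147.6 (SD, n = 4) and 2076 ± 253.5 (SD, n = 4), respectively (log2 fold change 0.20, adjusted p = 0.647, limma). Mmp13 varied widely among the controls, and both genes overlapped between the groups. In 1 of the 13 genes, Bmp1, every TGFβ1FKO library lay below every control, against 2.10% of all genes. Its values were 12355 to 13121 in TGFβ1FKO and 13143 to 13965 in control libraries (log2 fold change -0.10, adjusted p = 0.671, limma).

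Of 15 receptors and signalling partners, 12 were in the table, none was called, and 9 of 12 had a log2 fold change above 0 (median 0.08). At an unadjusted p-value under 0.05, 2 were higher and none lower (background 3.59% higher and 3.87% lower). Igf1r, a receptor to which decorin binds, had 2235, 2466, 2194 and 2346 normalised counts in the control and 2551, 2669, 2799 and 2620 in the TGFβ1FKO libraries. All TGFβ1FKO libraries lay above all controls, by a small step. The log2 fold change was 0.20 with an interval of 0.09 to 0.32 (unadjusted p = 0.00247, adjusted p = 0.394, limma; two-sided exact permutation test, p = 0.0286), and 1.69% of all genes were free of overlap in this direction. Cd44, the hyaluronan receptor, differed by 0.25 on the log2 scale (adjusted p = 0.589, limma).

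All 11 collagen genes to which these proteoglycans bind were in the table, and none was called (median 0.06). At an unadjusted p-value under 0.05, 1 was higher (background 3.59% higher). This was Col12a1, a fibril-associated collagen, with 50358, 54541, 36307 and 55907 normalised counts in the control and 54938, 74386, 68271 and 65204 in the TGFβ1FKO libraries. TGFβ1FKO replicate 1 lay within the range of the controls and the other 3 above it. The log2 fold change was 0.43 with an interval of 0.14 to 0.71 (unadjusted p = 0.00679, adjusted p = 0.510, limma). Col6a3, a chain of the collagen VI that binds biglycan and decorin, differed by 0.16 on the log2 scale (adjusted p = 0.798, limma).

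Other proteoglycan core proteins served as a comparison. Of 29 genes, 24 were in the table and none was called, with a median of 0.02. At an unadjusted p-value under 0.05, 4 were lower and 3 higher (background 3.87% lower and 3.59% higher). Agrn, a heparan sulphate proteoglycan of basement membranes, had 2042, 2757, 2533 and 3085 normalised counts in the control and 1821, 2073, 1763 and 1891 in the TGFβ1FKO libraries. Only control replicate 1 reached into the range of the TGFβ1FKO libraries. For Agrn the log2 fold change was -0.45 with an interval of -0.67 to -0.23 (unadjusted p = 0.000813, adjusted p = 0.216, limma). Col15a1, which encodes a collagen with chondroitin sulphate chains, had 656.1 ± 245.4 (SD, n = 4) and 385.3 ± 70.5 (SD, n = 4) normalised counts (log2 fold change -0.69, adjusted p = 0.582, limma). It was called without control replicate 1 (log2 fold change -0.99, adjusted p = 0.043, limma).

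**Figure D5:**
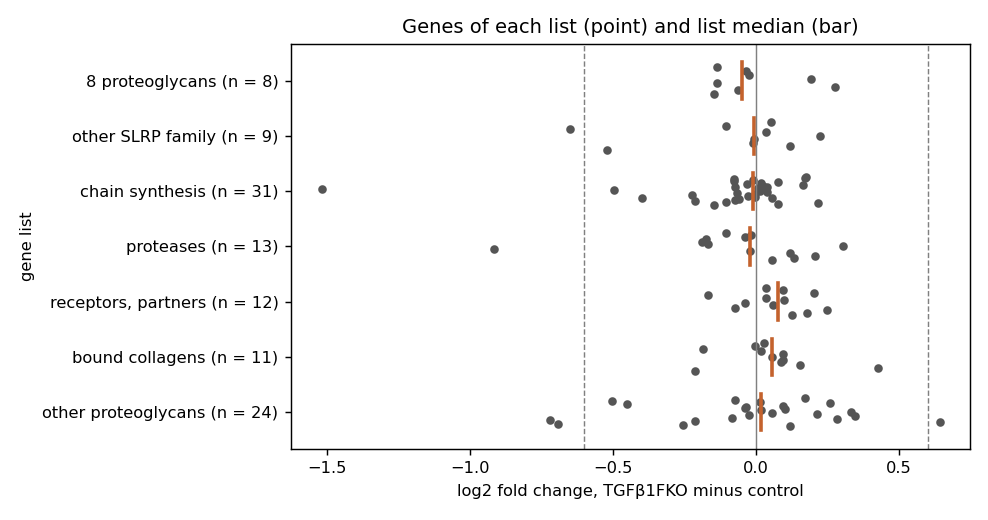
Log2 fold change of TGFβ1FKO against control for every measured gene of 7 lists (points) with the list median (bar), and dashed lines at 0.6 in either direction. The list medians lie between -0.05 and 0.08, and the lowest point is Chst3 at -1.52.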

How the data were processed

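RNA of cultured dermal fibroblasts was sequenced from 4 control and 4 TGFβ1FKO libraries, grouped by the genotype in the labels. The submitters' processing notes name CASAVA 1.8, HISAT2 2.0.5, featureCounts 1.5.0-p3, R 4.3.2 and DESeq2 1.42.0 with GRCm38/mm10, and the study left out genes whose reads summed to less than 5 times the number of samples. The libraries were made from poly-A RNA and do not mark strand. The authors deposited a signal that is never negative for 15111 genes, namely read counts scaled by DESeq2's size factors to which 0.5 had been added. In each library 100% of the values checked were whole multiples of the value of 1 read (within 0.01). The authors' mean, log2 fold change, standard error, Wald statistic and p-values were not used.

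After subtraction of the 0.5, log2(value + 1) entered limma 3.58.1 (R 4.3.3), with the prior variance following the mean (trend). The pseudocount of 1 understates changes of low genes. p-values were adjusted by Benjamini-Hochberg over all genes, and a call needed an adjusted p-value below 0.05 together with a log2 fold change beyond 0.6 in either direction, the thresholds of the study. The fit was tested on simulated data with 200 changed genes. Single genes were also compared with exact permutation tests (scipy 1.17.1). Counts per kb used GENCODE M21, which held 15098 of the genes, and promoters came from RefSeq. Within groups, each pair of libraries differed by more than sampling noise (chi-square of 5.14 to 21.0 per degree of freedom). Same-numbered libraries of the 2 groups were not paired in the main fit, as the labels give no pairing.

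The members and lists were chosen with earlier results of these data known. Besides the members, the genes named are called list genes, the 2 genes per list with the smallest unadjusted p-value, the 2 genes most like each member (mean of at least 50), Tgfb1 and genomic neighbours. Bmp1, Cenpp, Chst7, Scx, Tnmd, Tsku and Xylt2 were added after their values were seen. Alternatives covered the scaling, pseudocount, filter, thresholds, a block by replicate number and leaving out each library.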

Additional observations from a re-analysis of the deposited data

Results flagged for a closer look

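In 5 of 102 groups of 4 libraries tested, the highest or the lowest library stood apart from the 3 others by Dixon's criterion at the 95% level, where chance gives about 5.1. In the control group, Ogn had 3180 normalised counts in replicate 4 and between 2212 and 2329 in the other libraries. Ecm2, 3 genes away on chromosome 13, had 443.4 in the same library and 326.2 to 346.0 in the others, and Tnmd, which encodes the tendon protein tenomodulin, had 1502 against 827.7 to 930.3. Optc was lowest in control replicate 4, at 22.7 against 27.7 to 28.7. Tsku, a family gene that encodes tsukushi, was lowest in TGFβ1FKO replicate 4, at 1062.5 against 1118.5 to 1129. Thus 4 of the 5 libraries that stood apart were control replicate 4, and the part of this library's make-up was not tested.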

How the results depend on the processing

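No member was called under any alternative run with limma, namely TMM and total-read scaling, pseudocounts of 0.5 and 5, a minimum of 10 reads, adjusted p thresholds of 0.1 and 0.01, the replicate block, each library left out and a treat test against 0.6 that was added after seeing the data. The lowest adjusted p-value of any member under these was 0.345 (Fmod). The number of called genes among all genes, 13, was 3 with at least 10 reads in every library, 25 and 5 at thresholds of 0.1 and 0.01, 4 with the treat test, and 5 to 32 with each library left out (32 without control replicate 4). With the replicate number as a block 31 genes were called, none of them a member, and 2 members had an unadjusted p-value under 0.05 (Fmod and Prelp). The labels do not say whether same-numbered libraries were prepared together. The correlation of same-numbered libraries was -0.13 to 0.16, and none of the 4 control libraries resembled the TGFβ1FKO library of its own number most. With a library left out, log2 fold changes ran from -0.19 to -0.03 for Dcn, -0.076 to 0.00012 for Bgn, -0.12 to 0.064 for Lum, 0.14 to 0.25 for Fmod, -0.22 to -0.02 for Ogn, 0.14 to 0.44 for Prelp, -0.16 to 0.0090 for Aspn and -0.24 to -0.07 for Podn. The sign turned for Lum without control replicate 4 (0.057) or TGFβ1FKO replicate 3 (0.064), for Bgn without TGFβ1FKO replicate 3 (0.00012) and for Aspn without TGFβ1FKO replicate 1 (0.0090). The cause was not tested. The number of members with an unadjusted p-value under 0.05 lay between 0 and 2. The planned tests on reads (edgeR, also with TMM, and DESeq2) were not run here, although reads can be recovered once the 0.5 is subtracted. Another scaling moved the median log2 fold change of all genes from 0.003 to at most -0.02. The correlations without control replicate 4 and after subtraction of group means were also added after seeing the data.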
